A study of Mus musculus with 39 samples.

Results

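Fat stored in the adipocyte is released under the control of cyclic AMP, and 7 genes tied to its release were followed in mouse epididymal adipose tissue. They were taken by gene name, from what they are known to do, out of 29411 gene names on the array, with earlier results of these data known. The 7 were the β-adrenergic receptors Adrb1 and Adrb3, the receptors Adra2a, Adora1 and Ptger3, the natriuretic peptide receptor Npr1, and the phosphodiesterase Pde3b. The array carried 13 probes for them, and each gene was read from its probe with the highest mean signal, with the other 6 probes used as a check. Catecholamines released by sympathetic nerves act on β-adrenergic receptors, which couple to the stimulatory G protein, raise cyclic AMP and so activate the lipases of the lipid droplet. The α2-adrenergic receptors, and the adenosine and prostaglandin E receptors encoded by Adora1 and Ptger3, couple to the inhibitory G protein and lower cyclic AMP. Insulin acts in the same direction by activating the cyclic AMP phosphodiesterase that Pde3b encodes. Npr1 makes cyclic GMP when it binds atrial or brain natriuretic peptide, which is a separate route to fat breakdown, known better in human than in mouse fat cells.

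RNA came from C57BL/6J mice that were weaned at 3 to 4 weeks of age and placed on 1 of 5 diets, 30 animals to a diet. LFC was the low fat control diet with 10% of its calories from fat, and HFC was the high fat diet with 60% of calories from fat and added sucrose. HF5, HF20 and HF75 mice ate the high fat diet with KAL-1, a formulation of ethno-botanical origin, at 5, 20 or 75 µg. Every 3 weeks 5 animals of each diet were killed, and no label tells if RNA of 1 mouse or of a pool was put on an array. There were 11 LFC arrays (days 1, 6, 10 and 14, and weeks 0, 3, 6, 9, 12, 15 and 18), 10 HFC arrays (the same without day 1) and 6 arrays for each KAL-1 dose (weeks 3 to 18), so that each diet and time point was a single array and time points served as the replicates. Where diets were compared within time points, a p-value therefore measures how far the differences between diets varied from time point to time point. Within 1 diet it measures the spread between arrays of different time points. The comparison without KAL-1 for each dose was HFC.

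Levels are given as the log2 signal of a probe minus the 75th percentile of its own array, so that a value of 0 is the signal of that percentile, and a probe's level was never set against another probe's. Two-sided tests were made by limma, with a call at an adjusted p (Benjamini-Hochberg over all probes tested) under 0.05. On 37 arrays 53.7 to 79.6% of probes were well above background and 21 to 387 spots were marked as outliers. The LFC week 3 array stood apart with 97.1% and 16431 outlier spots, and the HFC week 12 array with 94.5% and 10531. Adrb1, Npr1 and Pde3b had no usable value on LFC week 3, nor Adrb1 and Pde3b on HFC week 12, and these entered the fits as missing. Of the markers of the labelled tissue, Adipoq, Fabp4, Cidec, Lpl and Pparg were well above background on all 39 arrays. Markers of neighbouring tissue varied widely, with an array's median over the epididymis list between -8.86 and 3.63. At week 6, LFC, HFC, HF5 and HF75 read -4.41, -5.38, -6.89 and -6.44 on the list of mesothelium and visceral depot genes, against -3.60 to 1.64 on the 34 arrays of the other weeks and days. HF20 at week 6 read -0.07. On the subcutaneous depot list, partly near background, LFC, HFC, HF5 and HF75 at week 6 read -3.77, -4.39, -5.29 and -3.52. HF20 read -8.97 there, and the 34 other arrays had a median of -7.33 (-9.27 to -2.11). Week 6 arrays hold the lowest Adrb3 and Adrb1 levels of LFC, HFC and HF75, the lowest Adora1 level and the highest Adra2a level given below. Whether the same fat depot, or the same part of it, was taken was not tested.

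Each reading rests on a probe of 60 bases. The opening 30 bases of each, 5′ to 3′ as the scanner files print them, show which transcript sequence every value below refers to; where in the transcript they lie is not given in the sources used here.
Adrb1: gttggaaggccattttgcacagtgttaggc
Adrb3: gggttcataggaagaagtcaaactattgga
Adra2a: gatctgatttcacgagagaaaaactaaatg
Adora1: gggagggtgtcaggttctcccctccttggg
Ptger3: ctaaatgttcagctagagctgttaaaagga
Npr1: acctgttttgatgctgtcatagacaacttt
Pde3b: aacaaactgcaggtggataatgcctcctta
The chromosomes of the 7 probes, by the array's annotation on build mm9, were 19 for Adrb1 and Adra2a, 8 for Adrb3, 1 for Adora1, 3 for Ptger3 and Npr1, and 7 for Pde3b. Adrb3 was spotted more than once and had a saturated spot on 6 arrays (HFC day 14, HFC week 3, LFC week 12, HF20 week 12, HF75 week 12 and HF20 week 18), so its highest levels are understated. Each of the 7 probes passed the scanner's background test on 38 or all 39 arrays.

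The 7 genes differed more from array to array than most of the probes compared did. Over the 37 arrays without LFC week 3 and HFC week 12, the SD of the log2 level was 1.996 for Adrb3, larger than that of 99.0% of the 18692 probes compared. These probes were well above background, with a usable value, on all of the 37 arrays. Adora1 had an SD of 1.82 (larger than 98.5% of probes), Ptger3 of 1.69 (98%) and Pde3b of 1.27 (93.5%). Adra2a (1.102, 89.3%), Adrb1 (1.01, 85.6%) and Npr1 (0.87, 77.2%) varied less, against a median SD of 0.61 over the 18692 probes. Adrb1 on LFC week 6 and Npr1 on HF5 week 9 were not well above background, so neither gene would have entered that set.

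**Figure D1:**
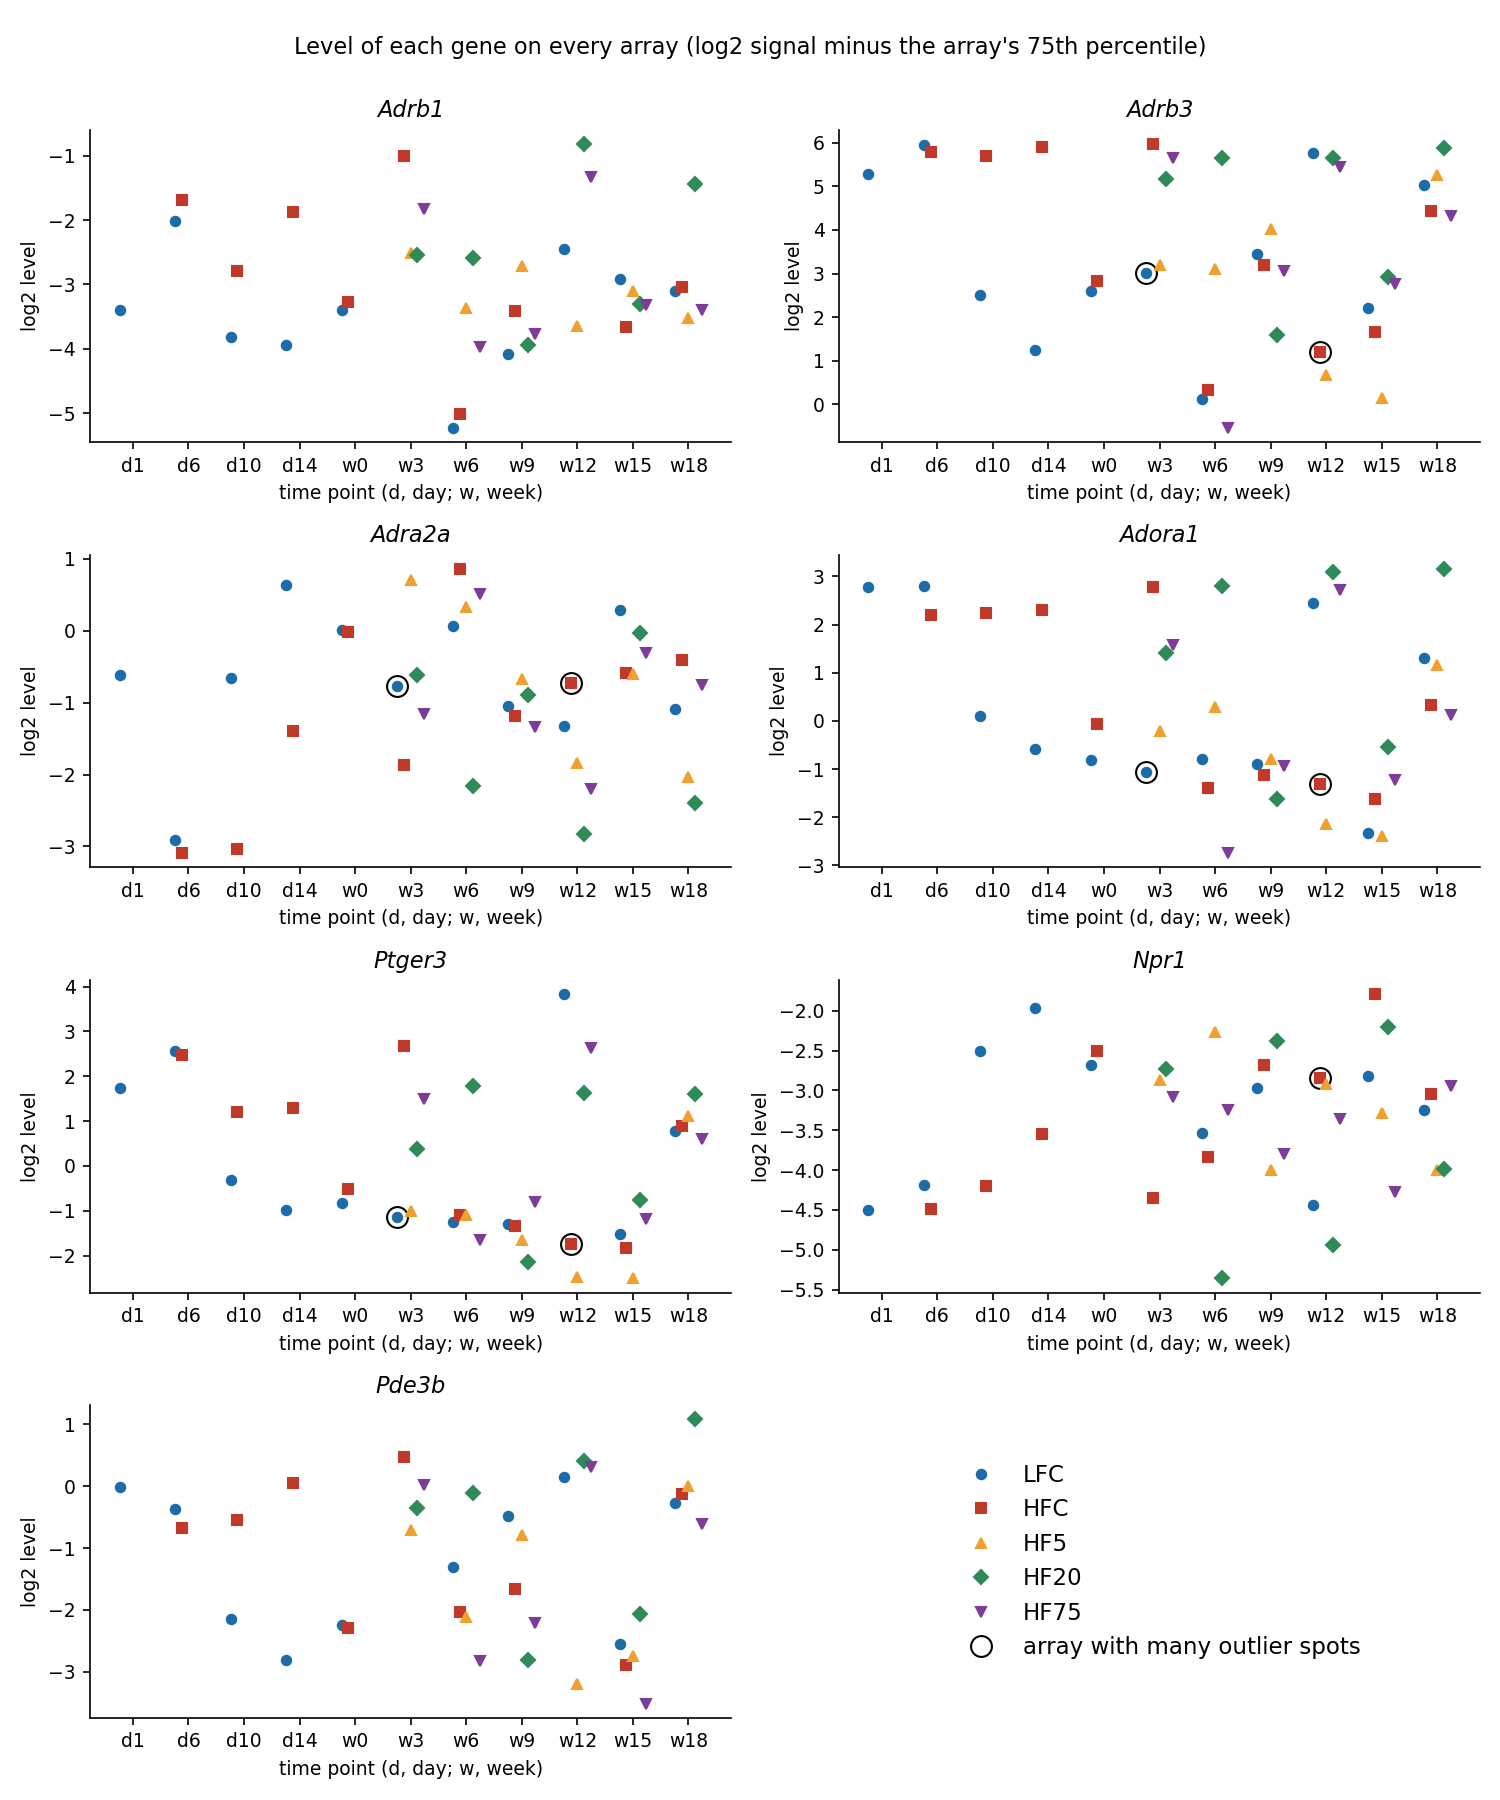
Log2 level relative to the array's 75th percentile (vertical) of the 7 genes at each time point (horizontal), 1 point per array, coloured by diet, with LFC week 3 and HFC week 12 circled. Adrb3 spans -0.54 to 5.98 and Adora1 -2.75 to 3.16, and in each panel the diets overlap.

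Adrb3, the β-receptor typical of rodent fat cells, covered at least a 91.6-fold range, from -0.54 on HF75 week 6 to 5.98 on HFC week 3, where a spot was saturated. In LFC its log2 level was 0.12 at the lowest, 3.02 at the median and 5.94 at the highest, and in HFC 0.33, 3.82 and 5.98. With KAL-1 the lowest, median and highest levels were 0.14, 3.15 and 5.26 in HF5, 1.60, 5.41 and 5.88 in HF20, and -0.54, 3.69 and 5.66 in HF75. The LFC median is the value of the LFC week 3 array, which stood apart. LFC and HFC include the arrays of days 1 to 14 and week 0, which the KAL-1 doses lack, and over weeks 3 to 18 alone the Adrb3 medians were 3.23 in LFC and 2.43 in HFC. HF20 had the highest median of the 5 diets with either set, but the range of each diet overlapped that of every other.

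Adrb1, the other β-adrenergic receptor of fat, bound by noradrenaline and adrenaline, lay between -5.23 (LFC week 6) and -0.81 (HF20 week 12). Its lowest, median and highest levels were -5.23, -3.40 and -2.01 in LFC and -5.01, -3.05 and -1.01 in HFC. In HF5 they were -3.64, -3.24 and -2.51, in HF20 -3.94, -2.56 and -0.81, and in HF75 -3.98, -3.35 and -1.33. The medians over weeks 3 to 18 were -3.10 in LFC and -3.42 in HFC. HF5 had the narrowest spread, and the diets overlapped.

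Adora1, the adenosine A1 receptor and a brake on lipolysis in fat cells, ran from -2.75 on HF75 week 6 to 3.16 on HF20 week 18, a 59.8-fold range. Its levels were -2.33, -0.58 and 2.81 in LFC and -1.63, 0.13 and 2.77 in HFC, as lowest, median and highest. They were -2.40, -0.50 and 1.17 in HF5, -1.62, 2.11 and 3.16 in HF20, and -2.75, -0.41 and 2.71 in HF75. Over weeks 3 to 18 the medians of LFC and HFC were -0.84 and -1.22. HF20 again had the highest median with either set and HF5 the lowest maximum.

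Ptger3, the prostaglandin E receptor EP3, spanned an 81-fold range from -2.51 (HF5 week 15) to 3.83 (LFC week 12). The lowest, median and highest levels were -1.51, -0.84 and 3.83 in LFC, -1.83, 0.19 and 2.68 in HFC, -2.51, -1.37 and 1.12 in HF5, -2.15, 1.00 and 1.78 in HF20, and -1.65, -0.11 and 2.62 in HF75. HF5 had the lowest median of the 5 diets, also beside those of LFC (-1.20) and HFC (-1.22) over weeks 3 to 18.

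Adra2a, the α2A-adrenergic receptor, tended to be high where these were low. Its lowest value was -3.09 on HFC day 6 and its highest 0.86 on HFC week 6. The lowest, median and highest levels were -2.92, -0.65 and 0.64 in LFC, -3.09, -0.96 and 0.86 in HFC, -2.03, -0.64 and 0.70 in HF5, -2.82, -1.53 and -0.04 in HF20, and -2.21, -0.95 and 0.51 in HF75. HF20, with the highest medians of Adrb3, Adora1 and Ptger3, had the lowest median of Adra2a, also over weeks 3 to 18, where LFC had -0.90 and HFC -0.65.

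Npr1 lay between -5.36 (HF20 week 6) and -1.79 (HFC week 15). Its median was -3.11 in LFC, -3.30 in HFC, -3.11 in HF5, -3.36 in HF20 and -3.31 in HF75, so that the medians of the 5 diets lay closer together than the arrays of any 1 diet. Over weeks 3 to 18 they were -3.24 in LFC and -2.94 in HFC. Pde3b ranged from -3.51 (HF75 week 15) to 1.08 (HF20 week 18). Its medians were -0.90 in LFC, -0.67 in HFC, -1.46 in HF5, -0.23 in HF20 and -1.41 in HF75, and again the diets overlapped. Over weeks 3 to 18 alone the medians were -0.49 in LFC and -1.67 in HFC, so that HFC then had the lowest of the 5.

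Which genes went together was described over the same 37 arrays, with no test, since the arrays are scaled each by its own percentile and share diets and time points. Adora1 and Ptger3 were the closest pair, with Pearson's r = 0.93 and Spearman's rho = 0.93. Adrb3 had r = 0.91 with Adora1, 0.87 with Ptger3 and 0.85 with Pde3b, and Pde3b had 0.86 with Adora1. Adrb1 went with these 4 genes at r = 0.65 to 0.77. Adra2a and Npr1 went with each other at r = 0.60 and ran against the other 5 genes, at -0.69 to -0.43.

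Removing the mean of each time point left this arrangement in place over the 36 arrays that allow it, with r = 0.93 for Adrb3 with Adora1, 0.87 for Adora1 with Ptger3 and -0.65 for Adrb3 with Adra2a. Set out by role, Adrb3, which raises cyclic AMP, and Adora1 and Ptger3, which lower it, were high on the same arrays, and Adra2a, which also lowers it, was low there.

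**Figure D2:**
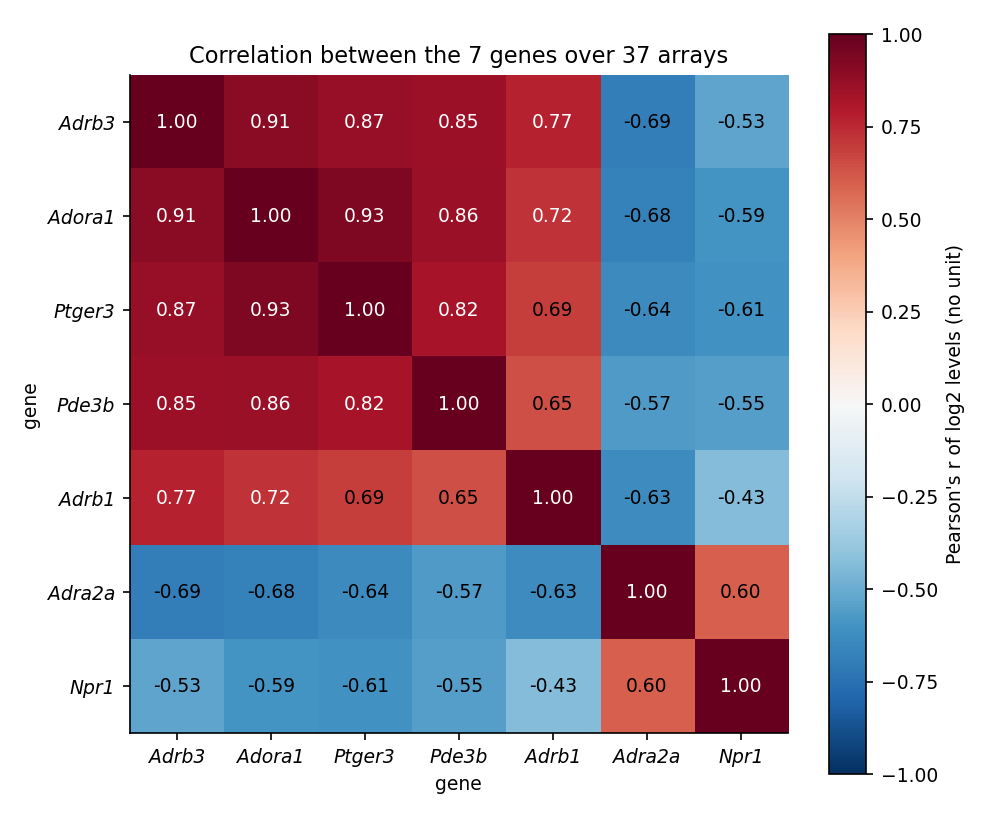
Pearson's r of log2 level for each pair of the 7 genes over 37 arrays, from -1 to 1 by colour. Adrb1, Adrb3, Adora1, Ptger3 and Pde3b form a block of r = 0.65 to 0.93, and Adra2a and Npr1 (r = 0.60) are below 0 with all 5. Within the 26 arrays high in immediate early genes (not drawn), Npr1 had r from -0.22 to 0.08 with the 5 and Adra2a from -0.44 to -0.195.

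The other probes gave the following check. The second Adora1 probe had r = 0.98 with the brightest over 37 arrays and the third 0.85. The values for Adra2a were 0.99 and 0.61, for Ptger3 0.87 and for Adrb1 0.53, where the dimmer Adrb1 probe was well above background on 28 of 39 arrays.

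Outside the 7 genes, the patterns most like each were taken as the highest Pearson's r over 14195 gene names. For Adrb3 these were Plin1 (r = 0.98), the perilipin that coats the lipid droplet, Slc7a10 (0.97) and Apol6 (0.97). For Adora1 they were Gpr120 (0.97), a receptor for long-chain fatty acids, Abhd15 (0.97) and Aldh1l1 (0.97). For Ptger3 they were Pxmp2, Nudt7 and Mlxipl, the last a carbohydrate-responsive transcription factor, each at 0.96. For Adra2a they were Lmod1 (0.91), a smooth muscle actin-binding protein, Amigo2 (0.91) and Id4 (0.90), and for Npr1 Tie1 (0.83), Sncaip (0.82) and Tek (0.81), of which Tie1 and Tek are endothelial receptor kinases. Adrb1 was nearest to Fads3 (0.87), Mrpl40 (0.87) and Sucnr1 (0.86), and Pde3b to Gm5131 (0.93), Odz4 (0.91) and Orm1 (0.90).

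Promoter sequence is shown for the closest pair, Adora1 and Ptger3, and for Adra2a, which ran against them. Each is the 250 bases before the start in RefSeq on GRCm38.p6, read on the gene's strand. Adora1 lies on the minus strand with this start at chr1:134235458-134235707, Ptger3 on the plus strand at chr3:157566626-157566875 and Adra2a on the plus strand at chr19:54045009-54045258. Capitals mark TGACG, the core letters of the cyclic AMP response element, searched on both strands.
Adora1: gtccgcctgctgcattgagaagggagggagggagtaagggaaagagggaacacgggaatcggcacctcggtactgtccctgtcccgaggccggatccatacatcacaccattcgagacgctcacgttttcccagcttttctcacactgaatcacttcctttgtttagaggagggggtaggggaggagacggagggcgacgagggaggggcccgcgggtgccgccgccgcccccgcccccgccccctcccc
Ptger3: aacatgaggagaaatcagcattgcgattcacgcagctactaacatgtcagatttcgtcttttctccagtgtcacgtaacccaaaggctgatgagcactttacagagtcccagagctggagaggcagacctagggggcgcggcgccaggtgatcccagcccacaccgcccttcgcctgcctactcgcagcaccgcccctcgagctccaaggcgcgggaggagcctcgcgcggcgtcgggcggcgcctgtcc
Adra2a: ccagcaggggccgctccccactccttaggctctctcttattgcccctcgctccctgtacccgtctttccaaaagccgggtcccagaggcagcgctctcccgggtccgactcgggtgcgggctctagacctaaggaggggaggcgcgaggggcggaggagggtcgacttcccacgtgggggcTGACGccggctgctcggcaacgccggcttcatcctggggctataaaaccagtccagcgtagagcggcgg
TGACG was found in the Adra2a window and not in those of Adora1 and Ptger3, and 17.8% of 32851 promoter windows of this length held it. It was also in the Adrb1 window and not in that of Npr1, so its presence did not divide the genes as their levels did. The full palindrome TGACGTCA, which contains it, was in none of the 6 windows of the 5 members that the table holds, and in 1.55% of all windows. Adrb3 and Pde3b have no entry.

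High fat feeding was first asked of HFC against LFC over the 10 time points that both diets have, with the time point as a block. None of the 7 genes was called, nor was any of the 29698 probes tested (0%). Adrb1 differed by 0.47 (SE 0.29, 1.38-fold, 95% interval -0.18 to 1.11, p = 0.139, adjusted p = 0.998 by limma) and was higher in HFC in 7 of 8 pairs. Adra2a differed by -0.47 (SE 0.33, p = 0.184, adjusted p = 0.998 by limma) and was lower in HFC in 7 of 10 pairs. Adrb3 (0.51, SE 0.71), Adora1 (0.41, SE 0.61), Ptger3 (0.22, SE 0.67), Pde3b (0.25, SE 0.42) and Npr1 (-0.07, SE 0.34) each had an adjusted p of 0.998, and their pairs split almost evenly. Those values move with the time points of the arrays that stood apart: without week 12 Ptger3 was 0.86 and Adrb3 1.08, and without week 3 they were -0.18 and 0.24. With both arrays that stood apart left out they were 0.49 and 0.84, and none of these was called.

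The median of the 7 differences was 0.25, beside 0.03 over all probes tested. None of the 7 had an unadjusted p under 0.05, beside 3.05% of probes, and an alternative without limma's shared variance, taken on the differences of the 10 time points, also called none, with 3.18% of probes at an unadjusted p under 0.05. The 95% intervals were wide: that of Adrb3 ran from -1.03 to 2.06, so that neither a halving nor a doubling lay outside it. Over the weeks 3 to 18 alone, in a fit with all 5 diets, the differences of the 7 lay between -0.47 and 0.33, with no call among members or among 32083 probes (0%) and 2.33% of probes at an unadjusted p under 0.05.

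**Figure D3:**
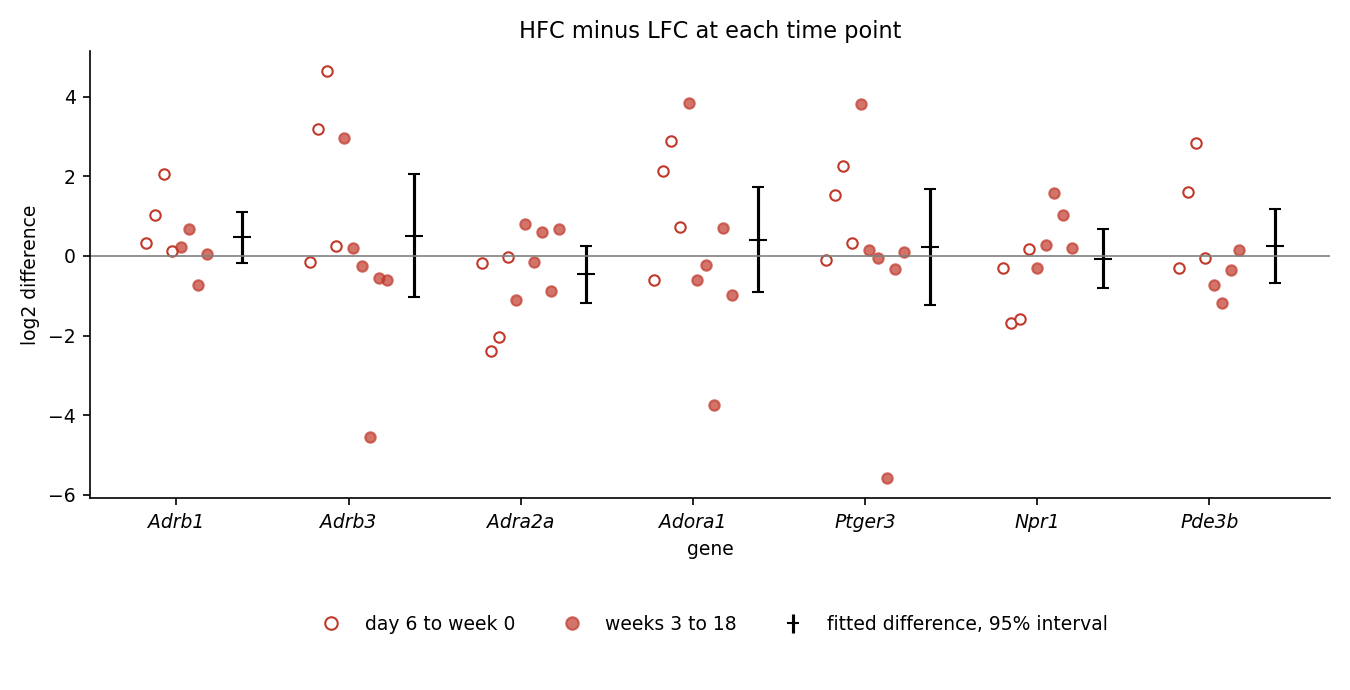
HFC minus LFC in log2 units for each of the 7 genes, 1 point per time point (open from day 6 to week 0, filled for weeks 3 to 18), with the fitted difference and its 95% interval in black. Every interval covers 0, and single time points of Adrb3 lie between -4.55 and 4.64.

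Single time points gave differences of either sign that were larger than the mean. For Adrb3, HFC minus LFC was -0.16, 3.19, 4.64 and 0.24 at days 6, 10 and 14 and week 0, and 2.96, 0.21, -0.25, -4.55, -0.55 and -0.60 at weeks 3, 6, 9, 12, 15 and 18. The week 3 and week 12 values rest on the LFC week 3 and HFC week 12 arrays that stood apart. For Adrb3 these arrays read 3.02 and 1.21, and HF5, which did not stand apart, read 3.19 and 0.68 at those weeks. HFC week 3, LFC week 12 and HFC days 10 and 14 were not among the 26 arrays high on the immediate early list, described below. LFC days 10 and 14 were among them, and at day 6 neither diet's array was. The part of that list was not tested. Adora1 differed by 2.13 and 2.88 at days 10 and 14, and by 3.84 and -3.75 at weeks 3 and 12. At days 10 and 14 Adra2a differed by -2.39 and -2.03 and Npr1 by -1.69 and -1.58. From day 6 to week 0 Adrb1 was higher in HFC in 4 of 4 pairs (0.13 to 2.06) and Adra2a lower in 4 of 4 pairs (-2.39 to -0.02), while Adrb3 was higher in 3 of 4.

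Whether the HFC minus LFC difference itself moved between the early time points and weeks 3 to 18 was tested on the 10 differences. No member and no probe was called (0%). Npr1 had 1.41 (SE 0.56, 95% interval 0.18 to 2.65, p = 0.0289, adjusted p = 0.833 by limma), and it was the only member at an unadjusted p under 0.05, where 5.26% of probes were. Its mean difference was -0.85 (SD 0.93, n = 4) from day 6 to week 0 and 0.56 (SD 0.75, n = 5) after. The value was 0.41 with normexp background correction, 0.73 with quantile normalisation, 0.90 with median scaling, 0.83 with outlier spots kept, 0.67 with array weights and 0.82 in the authors' table. Adrb3 (-2.44, SE 1.32, p = 0.0911), Pde3b (-1.55, SE 0.73, p = 0.0601) and Adra2a (1.15, SE 0.62, p = 0.0878) had adjusted p = 0.833 by limma. These values depend on single time points: Adrb3 was -3.13 without week 3 (p = 0.0253, adjusted p = 0.485 by limma) and -1.62 without week 12. The members at an unadjusted p under 0.05 numbered 4 without day 6 or without week 3 (beside 7.03 and 9.98% of probes), 3 without week 0 or without the arrays that stood apart (6.87 and 6.66%), and 0 without day 10, day 14, week 12 or week 15, and none was called.

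KAL-1 was then compared with HFC over weeks 3 to 18, where all doses have an array. No member was called at any dose, and neither was any of 32083 probes in HF5, HF20 or HF75 (0% each). HF20 gave the largest values. Adora1 at weeks 3, 6, 9, 12, 15 and 18 was 1.42, 2.80, -1.62, 3.09, -0.55 and 3.16 in HF20 and 2.77, -1.40, -1.13, -1.30, -1.63 and 0.33 in HFC. HF20 was the higher in 4 of 6 pairs and the lower at weeks 3 and 9, and the ranges overlapped.

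The fitted difference of Adora1 was 1.78 (SE 0.81, 3.42-fold, 95% interval 0.11 to 3.44), with p = 0.0375 and adjusted p = 0.772 by limma. This was the only member at an unadjusted p under 0.05, and 5.05% of all probes reached it. Without week 12, which holds the HFC array that stood apart, it was 1.25 (p = 0.102 by limma), without week 3, which holds the LFC array that stood apart, 2.40 (p = 0.00964, adjusted p = 0.149 by limma), with array weights 1.02 (p = 0.118 by limma), and on the dimmest Adora1 probe 0.56 (p = 0.366 by limma). Adrb3 differed by 1.68 (SE 0.93, 3.2-fold, p = 0.0835) and Adra2a by -0.84 (SE 0.45, 0.56 of the HFC level, p = 0.073), each with adjusted p = 0.772 by limma. In the fit without week 3, 4 of the 7 members had an unadjusted p under 0.05, beside 22.4% of all probes, with Adrb3 at 2.18 and Adra2a at -1.25, and none was called. Without week 6, where 4 of the 5 arrays were low in the mesothelium and visceral depot list, Adrb3 was 0.95. Ptger3 (0.83), Adrb1 (0.61), Pde3b (0.51) and Npr1 (-0.51) had 95% intervals that covered 0.

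Marker lists moved on the same pairs. The immediate early list (Fos, Fosb, Junb, Egr1 and others, genes that turn on within minutes of a stimulus) was lower in HF20 than in HFC by a mean of 2.37 log2 units and in 4 of 6 pairs, with an SD of 3.25. The adipocyte list differed by 0.50 (SD 0.94), the endothelium list by -0.71 (SD 1.81), and the subcutaneous depot list by -1.37 (SD 2.30). The sympathetic nerve list differed by -1.06 (SD 1.25, lower in 5 of 6 pairs), the macrophage list by 0.50 (SD 0.83, higher in 5 of 6) and the list of mesothelium and visceral depot genes by 0.75 (SD 3.01, higher in 5 of 6). Over all diets and time points, the subcutaneous depot genes Tbx15, Shox2 and En1 were not well above background on 26, 29 and 38 arrays. Of the sympathetic nerve genes, Th was not on 36 arrays, Dbh and Slc6a2 on 20 each, Npy on 13 and Slc18a2 on 7. The differences of these lists thus rest partly on signals near background, and no change of tissue is read from them. The part of the marker lists in the HF20 values was not tested.

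**Figure D4:**
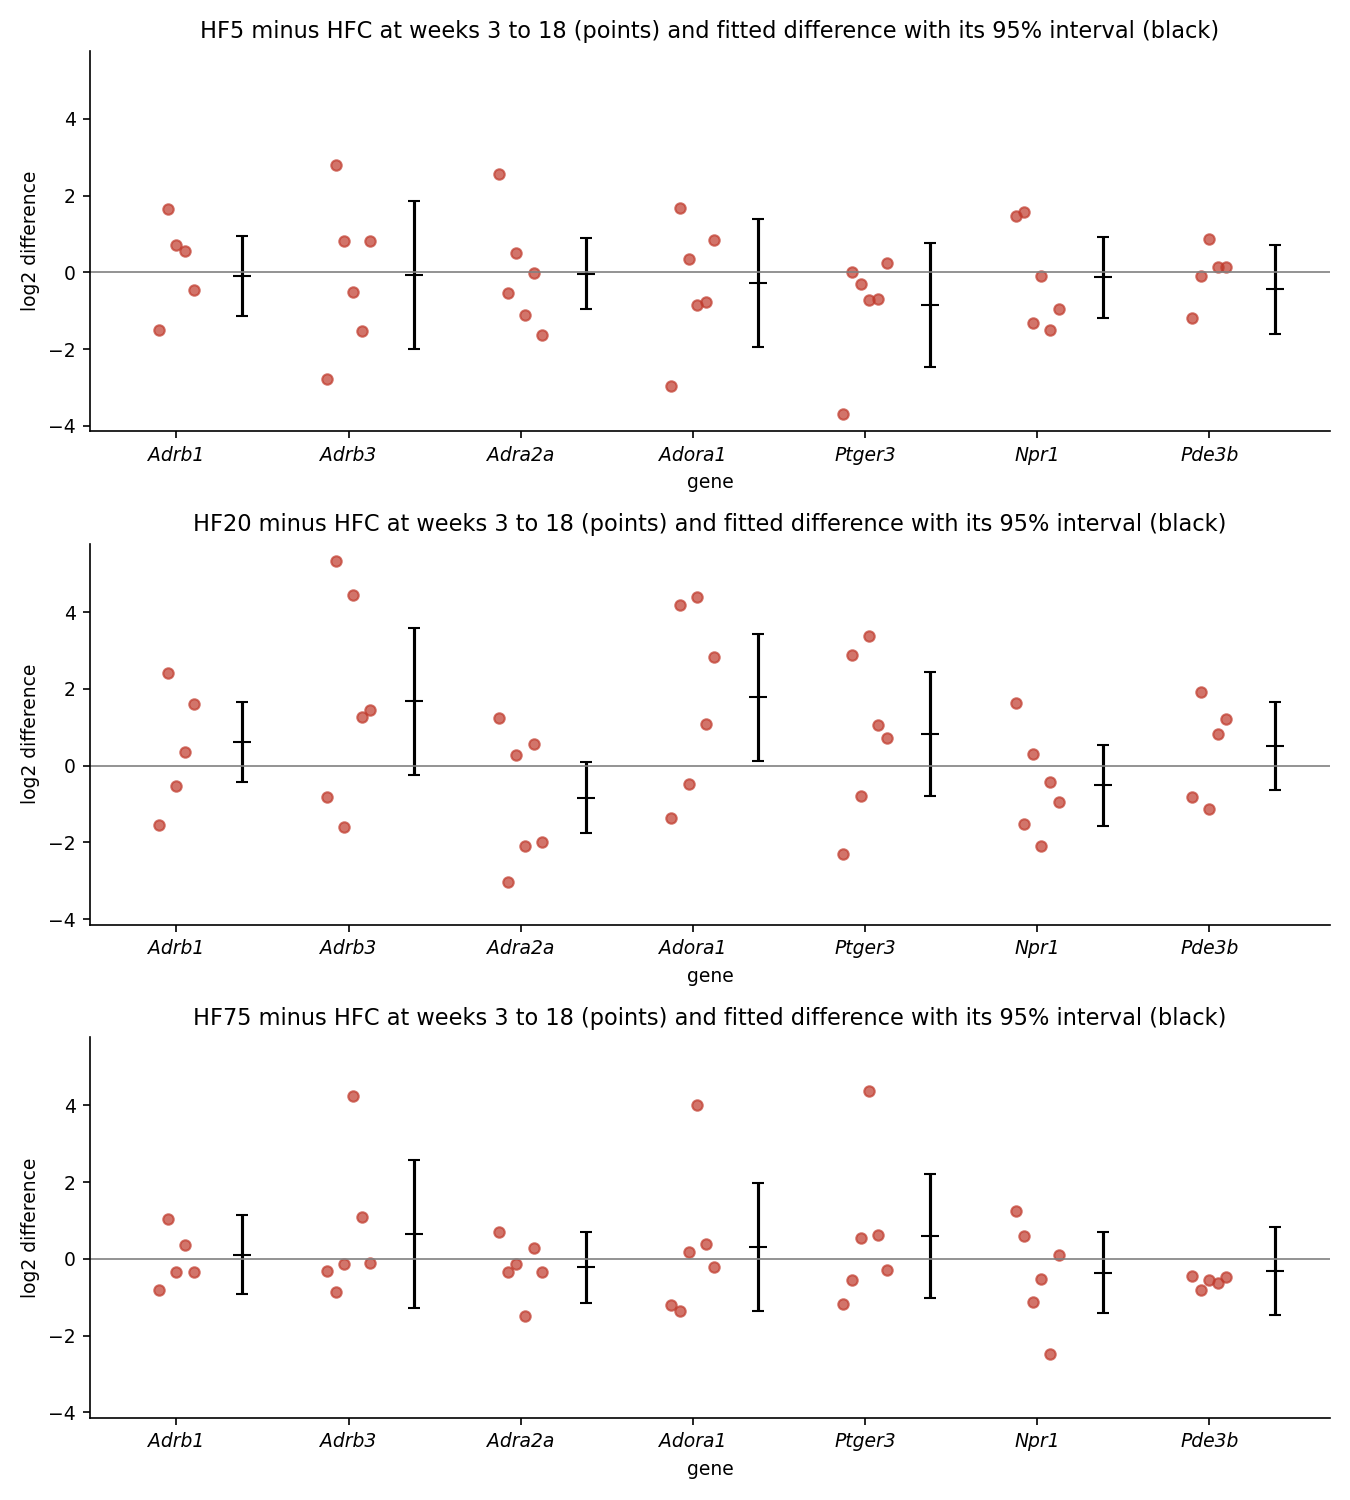
HF5, HF20 and HF75 minus HFC in log2 units (1 panel per dose) for the 7 genes, 1 point per week, with the fitted difference and its 95% interval in black. The Adora1 interval in HF20 (0.11 to 3.44) is the only one that leaves out 0, and it does so before adjustment.

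In HF5 the 7 fitted differences lay between -0.86 (Ptger3) and -0.03 (Adra2a), with adjusted p from 0.955 to 0.995 by limma, and 3.44% of probes had an unadjusted p under 0.05 but no member did. In HF75 they lay between -0.36 (Npr1) and 0.65 (Adrb3), each with adjusted p = 1 by limma and with 1.54% of probes at an unadjusted p under 0.05. Pde3b was lower in HF75 than in HFC in 5 of 5 pairs, with differences from -0.80 to -0.46 (SD 0.14). Its fitted difference was -0.33 (SE 0.55, p = 0.563, adjusted p = 1 by limma). The fit also drew on HF75 at week 12, where HFC has no value, and its SE came from the spread of all 5 diets. The mean of the 3 doses differed from HFC by between -0.36 (Adra2a) and 0.75 (Adrb3), with no call (0%) and 1.86% of probes at an unadjusted p under 0.05.

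The lowest and highest dose were compared directly. Of the 7 genes Ptger3 had the largest value, 1.45 higher in HF75 than in HF5 (SE 0.78, 2.73-fold, 95% interval -0.17 to 3.07, p = 0.0776, adjusted p = 0.883 by limma), and it was higher in 4 of 6 pairs. At weeks 3, 6, 9, 12, 15 and 18 HF75 minus HF5 was 2.51, -0.56, 0.83, 5.10, 1.32 and -0.52. Without week 12 the fitted value was 0.72, and on the other Ptger3 probe it was 0.14. No probe was called (0%), and 5.73% had an unadjusted p under 0.05. The 4 high fat diets together differed from LFC by between -0.53 (Pde3b) and 0.48 (Adrb1) over the members, with no call among them or among all probes (0%) and 6.05% of probes at an unadjusted p under 0.05.

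Time on each diet was followed by comparing weeks 3 to 18 with the earlier arrays. These contrasts also hold age, and scanning of the day 1 to 14 arrays came after that of the weekly arrays, so that scan period and time cannot be told apart except at week 0. Within LFC, the 7 differences lay between -1.08 (Adora1) and 0.62 (Pde3b), with adjusted p from 0.93 to 0.992 by limma and no call, beside 0.468% of probes called and 5.49% at an unadjusted p under 0.05.

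Within HFC the early levels of Adrb3 were 5.78, 5.70, 5.89 and 2.83 at days 6, 10 and 14 and week 0. At weeks 3 to 18 its lowest, median and highest levels were 0.33, 2.43 and 5.98. Adora1 read 2.21, 2.24, 2.30 and -0.07 at the same early arrays, and -1.63, -1.22 and 2.77 after. Days 6 to 14 were high for both genes and week 0 was not. HFC week 3 lay above the early range of each, weeks 9 and 18 lay within that of Adrb3 and week 18 within that of Adora1, and the other later arrays lay below.

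Late minus early in HFC was -2.06 for Adora1 (SE 0.87, 0.24 of the early level, p = 0.0367, adjusted p = 0.279 by limma) and -2.25 for Adrb3 (SE 1.08, p = 0.0623, adjusted p = 0.318 by limma). Adra2a had 1.24 (SE 0.67, p = 0.092, adjusted p = 0.352 by limma). Neither a member nor any probe was called (0%), and 1 of 7 members, Adora1, had an unadjusted p under 0.05, beside 16.6% of all 31136 probes.

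With array weights, which give less weight to arrays far from the fit, 4 of the 7 were called: Adora1 (-2.97, adjusted p = 0.0126), Adrb3 (-3.27, adjusted p = 0.0208), Adra2a (2.01, adjusted p = 0.0257) and Ptger3 (-2.54, adjusted p = 0.0278), all by limma. In that fit 25.4% of all probes were called. With week 0, the only early array of the later arrays' scan period, as the early level, the differences were -0.32 for Adora1, -0.03 for Adrb3, -0.63 for Adra2a and 0.10 for Ptger3. Between early and late the HFC mean of the immediate early list went from 2.30 to 5.15, that of the adipocyte list from 5.65 to 4.84 and that of the endothelium list from 3.14 to 4.02, and their part was not tested.

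Day 14 and week 0 are the same nominal time, since the study's day counts place week 0 at the end of the 14 days, and they give the size of a difference between arrays of 1 diet at 1 age. In HFC the day 14 array was above the week 0 array by at least 8.34-fold for Adrb3 (5.89, with a saturated spot, against 2.83), 5.19-fold for Adora1, 5.06-fold for Pde3b, 3.48-fold for Ptger3 and 2.63-fold for Adrb1. Adra2a was at 0.386 and Npr1 at 0.485 of the week 0 level. In LFC the same ratio was 0.393 for Adrb3, 1.18 for Adora1 and 1.55 for Adra2a. The fold changes fitted for diets and doses were all smaller than the HFC pair for Adrb3 and Adora1. In log2 size the HF20 values against HFC, 1.68 for Adrb3 and 1.78 for Adora1, were larger than the LFC pair (-1.35 and 0.23). Neither pair has a replicate, and in both the day 14 and week 0 arrays were of different scan periods.

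The array-to-array pattern was also set beside the marker lists. In bulk tissue, fewer cells of a type and less RNA per cell cannot be told apart. Over 37 arrays the adipocyte list (9 genes, summarised by their median) had r = 0.89 with Adrb3, 0.76 with Adora1, 0.76 with Ptger3, 0.75 with Pde3b and 0.59 with Adrb1, and -0.61 with Adra2a and -0.52 with Npr1. The endothelium list had r = 0.76 with Npr1 and 0.68 with Adra2a. Other lists had values of like size. The subcutaneous depot list, partly near background, had 0.635 with Adra2a and -0.645 with Adrb3, and the brown fat list (Ucp1, Cidea and others) had 0.70 with Ptger3 and 0.64 with Adora1. These lists and the 7 genes share the array and its scaling.

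The immediate early list did not vary smoothly. It lay between -0.79 and 1.24 on 8 arrays (LFC day 6, HFC days 6 and 10, LFC week 12, HF75 week 12 and HF20 weeks 6, 12 and 18), between 2.79 and 4.17 on 3 (LFC day 1, HFC day 14 and HFC week 3), and between 5.09 and 6.07 on the other 26, so no correlation over all arrays is given for it. Adora1 read 2.21 to 3.16 on the 8 arrays and -2.75 to 1.58 on the 26. Adrb3 read 5.45 to 5.94 on the 8 and -0.54 to 5.66 on the 26, and Npr1 read -5.36 to -3.36 and -4.28 to -1.79. These sets came from the data and were uneven over the diets. Among the 8, HF20 had weeks 6, 12 and 18, LFC day 6 and week 12, HF75 week 12, and HF5 no array. HFC had only days 6 and 10, so none of its arrays in the comparison with HF20 was among the 8.

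Within the 26 arrays Adora1 and Ptger3 had r = 0.89 and Adrb3 and Adora1 0.84, and Adrb3 had 0.90 with the adipocyte list. Adra2a had -0.44 with Adrb3, -0.24 with Adora1 and -0.22 with Ptger3 there. Within the 8 arrays Adora1 and Ptger3 had r = -0.27 and Adrb3 and Adora1 0.09. Over the 26, Npr1 had 0.00 with Adora1 and 0.22 with Adra2a. With the endothelium list Adra2a had 0.02 and Npr1 0.38, and with the subcutaneous depot list they had 0.55 and -0.095. How the tissue was handled before freezing is not in the sources used here, and the part of the immediate early genes in the members' levels was not tested.

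The other genes of the pathway were counted from 5 lists of 54 genes, chosen with earlier results of these data known: 14 further receptors of the same families, 6 further antilipolytic receptors, 21 genes of cyclic nucleotide signalling, 6 of receptor desensitisation and 7 lipolysis effectors. All 54 were tested, and none was called in any of the 11 comparisons as fitted. In HFC against LFC over 10 time points 3 were higher and 1 lower at an unadjusted p under 0.05 (7.41% of the lists, beside 3.05% of all probes), and the median difference of the 54 was 0.07, beside 0.03.

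Among antilipolytic receptors, Ffar2, a receptor for short-chain fatty acids, had 1.21 (SE 0.31, 2.31-fold, p = 0.00245, adjusted p = 0.998 by limma) and was higher in HFC in 9 of 9 pairs. Its lowest, median and highest levels were -1.52, 0.92 and 2.87 in LFC and -0.03, 2.33 and 3.89 in HFC, which overlapped. Hcar1, the lactate receptor, had 1.49 (SE 0.53, p = 0.0173, adjusted p = 0.998 by limma) and was higher in 8 of 9 pairs. Npr3, the natriuretic peptide clearance receptor that removes the ligand of Npr1, had 1.18 (SE 0.41, p = 0.014, adjusted p = 0.998 by limma) and was higher in 9 of 10 pairs. The 1 lower gene was Npy1r, a neuropeptide Y receptor, with -0.85 (SE 0.35, p = 0.0326, adjusted p = 0.998 by limma), lower in HFC in 9 of 10 pairs. Its lowest, median and highest levels were -7.82, -3.93 and -1.21 in LFC and -8.15, -4.17 and -1.35 in HFC, which overlapped. Those of Npr3 were 0.11, 1.18 and 3.40 in LFC and 0.68, 2.25 and 4.27 in HFC, and overlapped too. In HFC against LFC over weeks 3 to 18 alone Hcar1 had 1.54 and Npr3 1.03 (adjusted p = 1 by limma), beside Adra1b, an α1-adrenergic receptor, at 0.60, and with normexp background correction Hcar1 turned to -0.23. Over the 4 high fat diets against LFC in weeks 3 to 18, Npr3 had 1.30 (SE 0.46, p = 0.00896, adjusted p = 0.763 by limma), with Adcy9, an adenylyl cyclase, at 0.68 and Aqp7, the glycerol channel of fat cells, at 0.83.

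In HF20 against HFC, 3 of the 54 genes had an unadjusted p under 0.05 (5.56%, beside 5.05% of all probes). Lipe, hormone-sensitive lipase, had 1.44 (SE 0.55, p = 0.0159, adjusted p = 0.772 by limma), Adcy5, an adenylyl cyclase, 1.04, and Rgs2, a regulator of G protein signalling, -1.07. In HF5 Adcy5 had -1.33, Adora2a, the adenosine receptor that raises cyclic AMP, 1.34, and Grk2, the β-adrenergic receptor kinase, 0.50, with adjusted p = 0.955 by limma. In HF75 and in the mean of the doses none had an unadjusted p under 0.05, and the smallest p were those of Adra1b (-0.60), Pnpla2 (0.89), which encodes adipose triglyceride lipase, and Aqp7 (0.79) in HF75, and of Aqp7 (0.67), Ptger1 (-0.60, and 0.10 with quantile normalisation) and Lipe (0.67) in the mean. Between HF75 and HF5 Prkacb, a catalytic subunit of protein kinase A, had -1.21, Grk2 -0.47 and Pde4d, a cyclic AMP phosphodiesterase, -1.12, with adjusted p of 0.86, 0.862 and 0.87 by limma.

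Late against early within HFC, 12 of the 54 had an unadjusted p under 0.05, 5 higher and 7 lower (22.2%, beside 16.6% of all probes). Gnas, the stimulatory G protein α subunit, had -0.81 (SE 0.21, adjusted p = 0.216 by limma) and Abhd5, the coactivator of adipose triglyceride lipase, -2.24 (SE 0.67, adjusted p = 0.229 by limma). Both were called with array weights, at -0.75 and -2.93, in a fit that called 25.4% of all probes. Abhd5 was also called without week 0 (-2.79, adjusted p = 0.0494 by limma). In that fit 2.71% of all probes were called and 26.6% had an unadjusted p under 0.05. Within LFC Pde4a, another such phosphodiesterase, had 0.89, Adra2c -1.11 (0.09 with normexp background correction) and Gnas -1.12. For the change of the diet difference with time, Ptger1 had 1.73, Gnai2, an inhibitory G protein subunit, 1.13 and Npy1r 1.44, with adjusted p = 0.833 by limma.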

How the data were processed

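RNA of epididymal adipose tissue was hybridised to 39 single-colour Agilent arrays of 45220 spots, 43803 of them not controls, for 40628 probes. The deposited scanner files hold intensity values that, per the file headers, were background-subtracted by Feature Extraction 10.5.1.1 (the labels name 9.1), with no normalisation between arrays. The authors' deposited table holds log2 differences, each from the matching LFC array, and was used only as an alternative for comparisons between diets.

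From each processed signal the log2 was taken and the array's 75th percentile subtracted. Outlier spots were set to missing and spots of a probe averaged. Probes were tested if they cleared background on 10 or more of 20 arrays (HFC and LFC), 6 of 30 (5 diets, weeks 3 to 18), 5 of 11 (LFC) or 4 of 10 (HFC). limma 3.58.1 (R 4.3.3, with the data.table package, version 1.17.8) was fitted with the time point as a fixed block for diets, two-sided, with Benjamini-Hochberg adjustment over all probes tested and a threshold of 0.05, and the fit was tested on simulated data. Diets share a time point but no replicate number. Python 3.11.15 with pandas 2.3.3, numpy 2.4.6 and matplotlib 3.10.9 was used for tables and plots. The number of arrays limits the precision.

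The 7 genes, the pathway lists and the marker lists were chosen with earlier results of these data known. All 7 genes were named, and of the pathway lists the genes past the threshold and in each comparison the 3 with the smallest p, of which 1 is not reported here. Alternatives were normexp background correction (offset 50), quantile and median scaling, outlier spots kept, other filters, array weights, slide as a random block, no time point block, the authors' table, a plain t-test on the differences of the 10 time points (in place of the methods' t-test between repeated samples, which 1 array per diet and time point does not allow), other probes of a gene, leaving out each time point, the 2 arrays that stood apart, and 4 arrays of week 6, the last chosen after seeing the data. The study's methods describe repeated experiments, while 1 array per diet and time point was analysed here.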

Additional observations from a re-analysis of the deposited data

Results flagged for a closer look

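Of 59 groups of 4 to 10 arrays searched, 3 held an array far from the others, and chance alone would mark about 1 in 20. Adrb3 on HFC week 0 was 2.83, while the nearest of the other early HFC arrays was 5.70. Adora1 on the same array was -0.073, and the nearest other early HFC array was 2.21. Both come from the 1 early HFC array scanned in the period of the later weeks, and its immediate early list read 5.38, while HFC days 6, 10 and 14 read -0.61, 0.28 and 4.17. Adrb1 on LFC day 6 was -2.01, while the nearest early LFC array was -3.40. The immediate early list there read 1.24. What the scan period or these markers contribute was not tested.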

How the results depend on the processing

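The number of the 7 genes called was 0 in all 11 comparisons as reported, and stayed at 0 under every alternative run except 1: late against early within HFC, where array weights gave 4 called. Leaving out each time point in turn gave 0 to 0 called in each comparison. Over 31 alternatives, 1519 values of the 7 genes were computed, of which 1359 kept their sign and 160 changed it, all 160 among values without a call. The labels give no replicate numbers, and diets were paired by time point, as a block. The slide could not be fitted as a block within 1 diet or for the change of the diet difference, since each slide holds 1 array of a diet, and the authors' table could not serve within a diet. With 1 array per diet and time point, the spread between arrays is the limit: the interval of Adrb3 in HF20 against HFC ran from -0.24 to 3.59.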
